A study of Mus musculus with 4 samples.

Results

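The interferon-gamma induced GTPase genes were examined in the blood transcriptome of aging mice given naringenin (Nar), a flavonoid. The group held 10 genes, listed by symbol with earlier results of these data known. They were the guanylate-binding protein genes Gbp2, Gbp3, Gbp4, Gbp6 and Gbp7 and the immunity-related GTPase genes Irgm1, Irgm2, Igtp, Iigp1 and Gm4951. All 10 were listed with values in all 4 libraries, among 17823 genes with values. Nar-treated animals were C57BL/6 mice, 12 months old by the study's methods and called adult in the labels, that received 20 mg/kg Nar through the tail vein for 30 days. Control animals (Ctrl) were C57BL/6 mice of the same age that received phosphate-buffered saline (PBS) over the same time. There were 2 libraries in each group, numbered 1 and 3 in the labels, and whole blood was used, so fewer cells of a type and less RNA per cell cannot be told apart.

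Both families are large GTPases of cell-autonomous immunity. Interferon-gamma binds its receptor, the kinases Jak1 and Jak2 pass the signal on, and transcription factors that include Irf1 switch the GTPase genes on. Guanylate-binding proteins assemble on the membranes of vacuoles that hold bacteria or parasites and on bacteria in the cytosol, and they promote the activation of inflammasomes. Immunity-related GTPases of the effector kind, such as Iigp1 (Irga6), load onto parasite vacuoles and disrupt them, while the regulatory kind, Irgm1, Irgm2 and Igtp (Irgm3), sits on the cell's own membranes and holds the effectors inactive there. In RefSeq on GRCm38.p6, the assembly whose base build, GRCm38, the submitters' processing notes also name, the genes lie in clusters. Gbp7 (chr3:142530336-142550151), Gbp3 (chr3:142560016-142573213) and Gbp2 (chr3:142620663-142638008) are neighbours on chromosome 3. Gbp4 (chr5:105115767-105139586) and Gbp6 (chr5:105270702-105295871) lie on chromosome 5. Igtp (chr11:58199556-58207592) and Irgm2 (chr11:58214977-58222783) are adjacent on chromosome 11, which also carries Irgm1 (chr11:48865245-48871420), and Iigp1 and Gm4951 lie on chromosome 18.

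Values were FPKM, fragment numbers normalised for transcript length and for library size, so genes of different length can be compared by level. Haemoglobin genes made up 92.6% to 96.4% of the summed FPKM, and the median FPKM of the 5339 tested genes was 1.85 and 1.97 in the Ctrl libraries and 0.89 and 0.74 in the Nar libraries. The typical gene was thus lower with Nar, with a median log2 fold change of -1.07 on log2(FPKM + 0.1), a scale that understates the change of low genes. The GTPase genes and the counts for each gene list are therefore given on the deposited scale and after scaling libraries by the median of ratios, in which the typical gene is made equal, and the median was then -0.061. The number of reads behind the values is unknown. With 2 libraries against 2, the smallest two-sided p of an exact permutation test is 0.33, so single genes with a mean of at least 0.5 FPKM were tested with limma, which shares the estimate of spread across genes. Nothing in the labels says that the libraries of a group came from separate animals, so the p-values measure the spread between these libraries only.

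GTPase expression was lower in the Nar libraries, and among the tested genes Gbp2 and Irgm1 had the lowest log2 fold changes. All 10 genes had both Nar libraries below both Ctrl libraries, an ordering that also held for 78.3% of the tested genes and for 52.7% of the 16382 genes above 0 in any library. Of the 10 genes, 7 passed the filter on low values. Of these, 6 fell with a limma adjusted p-value under 0.05, Gbp2, Irgm1, Gbp4, Gbp7, Gbp3 and Irgm2. Irgm1, Gbp4, Gbp3 and Irgm2 had a Nar mean under 0.5 FPKM and passed the filter only through their Ctrl levels. Igtp did not pass the test, and no gene of the group rose. Over all tested genes 39.6% fell by the same rule and 0.187% rose. Summed over all 10 genes, expression was 29.4 and 61.5 FPKM in the Ctrl libraries and 14.6 and 8.86 FPKM in the Nar libraries. Over the 9 genes other than Igtp, it was 18.1 and 18.8 FPKM against 3.35 and 2.23 FPKM. The median log2 fold change of the 7 tested genes was -1.85 on the deposited scale and -1.03 after median-of-ratios scaling. Without Ctrl 1 or without Ctrl 3 limma called 0 of the 7, with 7 and 5 at an unadjusted p-value under 0.05, beside 2682 and 2133 of the 5339 tested genes. Without Nar 1 or Nar 3 it called 3 and 2 of the 7, beside 259 and 213 of all tested genes. With no filter on low values it called 0 of the 10, with 8 at an unadjusted p-value under 0.05.

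**Figure D1:**
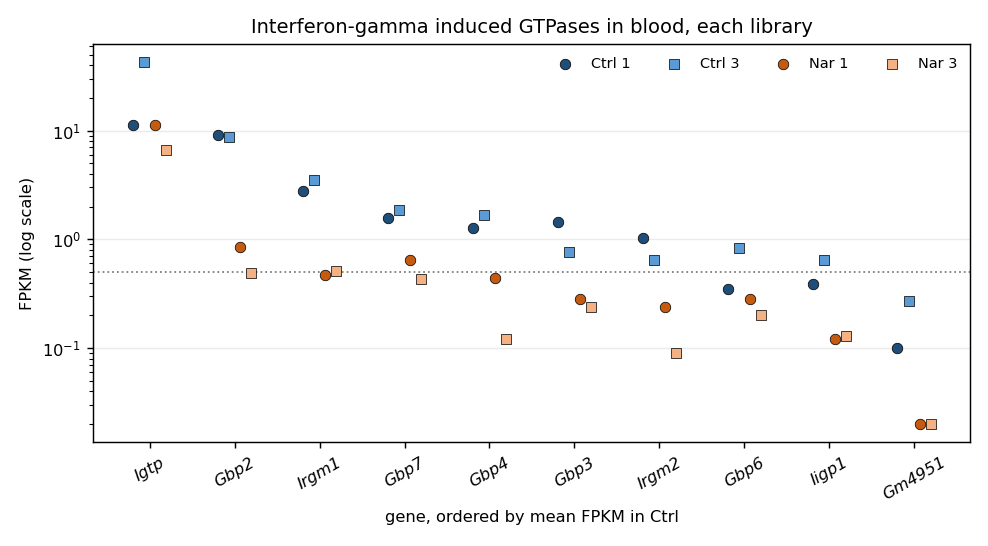
Expression of the 10 GTPase genes in each library, in FPKM on a log axis, with the genes ordered by their mean in the Ctrl libraries and 1 point per library. The dotted line marks 0.5 FPKM, the minimum for the mean of the 4 libraries of a tested gene. For Gbp2 the Nar points (0.85 and 0.49) lie far below the Ctrl points (9.18 and 8.66), while for Igtp the Ctrl 1 point (11.28) and the Nar 1 point (11.26) are level.

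Of the 4 guanylate-binding protein genes of the group that were tested, Gbp2, whose protein is recruited to parasite vacuoles and to bacteria, had the lowest log2 fold change. It stood at 9.18 (Ctrl 1) and 8.66 FPKM (Ctrl 3) in control blood, against 0.85 (Nar 1) and 0.49 FPKM (Nar 3) after treatment. The control libraries were close to each other and both lay far above the Nar libraries, the Ctrl mean being 13.3 times the Nar mean. The means were 8.92 ± 0.368 (SD, n = 2) and 0.67 ± 0.255 (SD, n = 2), and Gbp2 differed by -3.59 on the log2 scale (standard error 0.42, limma adjusted p = 0.00297). Only 28 of the 5339 tested genes (0.524%) had a lower log2 fold change. Once scaled by the median of ratios, Gbp2 differed by -2.55 (limma adjusted p = 0.0433), and Gbp2 was the 1 gene of the group that still fell by the test, where 0.356% of the tested genes did.

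Gbp4, Gbp7 and Gbp3 were lower by smaller amounts. Gbp4 stood at 1.27 (Ctrl 1) and 1.67 FPKM (Ctrl 3) in control blood, against 0.44 (Nar 1) and 0.12 FPKM (Nar 3) after treatment (log2 fold change -2.18, standard error 0.48, limma adjusted p = 0.0164). Its Nar libraries differed 3.67-fold from each other. Gbp7, whose protein also acts in the defence against intracellular bacteria, was listed at 1.58, 1.85, 0.65 and 0.43 FPKM in the same order of libraries (log2 fold change -1.52, standard error 0.36, limma adjusted p = 0.0193). Its libraries were close to each other within both groups. Gbp3 was listed at 1.43, 0.76, 0.28 and 0.24 FPKM (log2 fold change -1.67, standard error 0.43, limma adjusted p = 0.0232), with Ctrl 3 nearer to the Nar libraries than Ctrl 1. Scaled by the median of ratios, Gbp4 differed by -1.28, Gbp7 by -0.53 and Gbp3 by -0.76 (log2), with limma adjusted p-values of 0.275, 0.57 and 0.485. Gbp6 had 0.35, 0.83, 0.28 and 0.2 FPKM and a mean under 0.5, so it was not tested. Its groups did not overlap (exact permutation p = 0.33, two-sided), but they did after median-of-ratios scaling. Of the stretches of 50 bases in the GENCODE transcripts of Gbp6, 70.7% also occurred in transcripts of another gene, mainly Gm43302 and Gbp10, so reads of Gbp6 can be split between them.

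Of the regulatory GTPases, Irgm1, which also takes part in autophagy and in the control of mycobacteria, changed together in both libraries of each group. It stood at 2.8 (Ctrl 1) and 3.5 FPKM (Ctrl 3) in control blood, against 0.47 (Nar 1) and 0.51 FPKM (Nar 3) after treatment, and the Nar libraries were nearly equal. The means were 3.15 ± 0.495 (SD, n = 2) and 0.49 ± 0.0283 (SD, n = 2), and Irgm1 differed by -2.45 on the log2 scale (standard error 0.35, limma adjusted p = 0.00444). Irgm2, whose protein restrains inflammasome activation through caspase-11, was listed at 1.02, 0.65, 0.24 and 0.09 FPKM (log2 fold change -1.85, standard error 0.51, limma adjusted p = 0.0267), and with a mean of 0.5 FPKM it only just met the filter. Scaled by the median of ratios, Irgm1 differed by -1.44 and Irgm2 by -1.03 (log2), and neither passed limma (adjusted p = 0.109 and 0.423), although both Nar libraries stayed below both Ctrl libraries for each. That ordering held after scaling for 6 of the 7 tested GTPase genes, the exception being Igtp, and for 25.0% of all tested genes.

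Igtp was the most abundant gene of the group in every library. It stood at 11.28 (Ctrl 1) and 42.71 FPKM (Ctrl 3) in control blood, against 11.26 (Nar 1) and 6.63 FPKM (Nar 3) after treatment. Ctrl 3 stood 3.79-fold above Ctrl 1, and Ctrl 1 was level with Nar 1. At far lower levels Ctrl 3 was also the high library for Gm4951 (2.7-fold above Ctrl 1), Gbp6 (2.37-fold) and Iigp1 (1.64-fold). For Gbp4, Irgm1 and Gbp7 it was higher by 1.31-fold or less, and Ctrl 1 was the higher for Gbp2, Gbp3 and Irgm2. The means of Igtp were 27.0 ± 22.2 (SD, n = 2) and 8.95 ± 3.27 (SD, n = 2). Its log2 difference of -1.34 (standard error 0.68, limma adjusted p = 0.123) did not pass the test. It was -0.38 without Ctrl 3 and -2.29 without Ctrl 1 (limma adjusted p = 0.581 and 0.0826), so its size depended on which control library was used. After median-of-ratios scaling it was -0.24 and the groups overlapped. The share of Igtp in the summed FPKM of the group was 38.4% for Ctrl 1, against 69.4% for Ctrl 3, 77.1% for Nar 1 and 74.8% for Nar 3. Set against Irgm1 in the same library, a ratio that no scaling of libraries can move, Igtp was 4.03 times as high in Ctrl 1 and between 12.2 and 24.0 times in the other libraries.

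The effector genes were near the lower end of the values. Iigp1 stood at 0.39 (Ctrl 1) and 0.64 FPKM (Ctrl 3) in control blood, against 0.12 (Nar 1) and 0.13 FPKM (Nar 3) after treatment. Gm4951, a gene of the Iigp1 family, was listed at 0.1, 0.27, 0.02 and 0.02 FPKM. Neither reached the mean of 0.5 FPKM and neither was tested with limma, but both had groups that did not overlap on the deposited scale and after median-of-ratios scaling (exact permutation p = 0.33 for each, two-sided). The log2 fold changes were -1.42 for Iigp1 and -1.18 for Gm4951, and for Gm4951 the value depended on the pseudocount, with -0.21 at 1 and -2.55 at 0.01.

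By level in the Ctrl libraries the order was Igtp, Gbp2, Irgm1, Gbp7, Gbp4, Gbp3, Irgm2, Gbp6, Iigp1 and Gm4951, in FPKM. Igtp, Gbp2 and Irgm1 were each separated from the next gene in both control libraries. From Gbp7 down to Iigp1 each gene overlapped with its neighbour in the order, and Gm4951 was below all. In the Nar libraries Igtp stayed highest, but Gbp2 came close to the genes after it and was below Irgm1 in Nar 3. Gbp2 was 5.81 and 4.68 times as high as Gbp7 in the Ctrl libraries and 1.31 and 1.14 times in the Nar libraries.

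**Figure D2:**
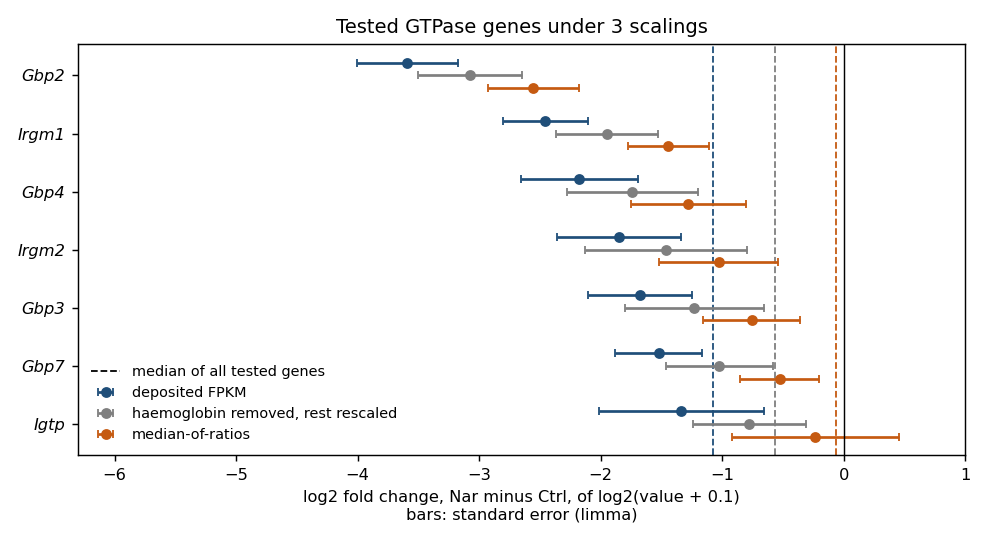
Log2 fold change (Nar minus Ctrl) of the 7 tested GTPase genes on the deposited scale, after rescaling without haemoglobin genes, and after median-of-ratios scaling. Bars are standard errors from limma and dashed lines the median of all tested genes on each scale (-1.07, -0.56 and -0.061). Gbp2 lies furthest from the dashed line of its colour on all 3 scales, and Igtp lies within a standard error of it.

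Removing haemoglobin genes and rescaling what was left to a common sum gave values between the other scales. Gbp2 (-3.07, limma adjusted p = 0.000439) and Irgm1 (-1.95, limma adjusted p = 0.0115) fell, that is 2 of the 7 tested genes, where 5.01% of the tested genes did. The other 5 had log2 fold changes from -1.74 (Gbp4, limma adjusted p = 0.0775) to -0.78 (Igtp, limma adjusted p = 0.311).

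The region around the start of the genes is shown because 6 of the 10 could be matched to a RefSeq promoter (GRCm38.p6, a window of 300 bases around the start), and all 6 held the core of the interferon-stimulated response element, a site bound by factors of the Irf family. The core searched was GAAA, then 2 bases of any kind, then GAAA again, on either strand. It occurred in 3.99% of the 27025 genes with a promoter and in 4.90% of the 4222 tested genes with one. Of related lists, 4 of 5 other interferon-inducible GTPases, 12 of 21 genes stimulated by type I interferon and 6 of 31 interferon-gamma pathway genes held it. The gamma-activated sequence, another element of interferon-responsive promoters, was searched as TTCNNNGAA, which reads the same on both strands. It occurred in 3 of the 6, Gbp7, Irgm2 and Igtp, against 9.55% of genes and 3 of 5 other interferon-inducible GTPases. Of the pathway list 8 of 31 genes held it, and of the type I interferon list 4 of 21. For each gene 70 bases around the first core match are given 5′ to 3′ on the strand of the gene, with matches to either motif in capitals. For Gbp3, with 2 promoters in the table, the stretch is from the upstream one. The stretches of Gbp3, Irgm1 and Igtp run past the annotated start of the gene, so their last bases lie within it. A match is a description of the sequence and not evidence of binding in these samples.

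Igtp (chr11:58199492-58199561, plus strand): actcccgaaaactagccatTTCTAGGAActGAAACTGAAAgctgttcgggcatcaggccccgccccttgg
Irgm2 (chr11:58214883-58214952, plus strand): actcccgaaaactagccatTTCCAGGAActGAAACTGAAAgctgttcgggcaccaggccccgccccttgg
Irgm1 (chr11:48871411-48871480, minus strand): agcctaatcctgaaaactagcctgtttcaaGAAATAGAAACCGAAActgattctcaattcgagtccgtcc
Gbp2 (chr3:142620574-142620643, plus strand): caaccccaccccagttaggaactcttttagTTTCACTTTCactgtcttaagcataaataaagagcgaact
Gbp3 (chr3:142559969-142560038, plus strand): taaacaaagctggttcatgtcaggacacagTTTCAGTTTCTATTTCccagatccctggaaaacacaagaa
Gbp7 (chr3:142530253-142530322, plus strand): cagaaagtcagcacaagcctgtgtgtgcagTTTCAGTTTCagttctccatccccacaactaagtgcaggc

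In Igtp and Irgm2 the gamma-activated sequence and the response element core lay next to each other, and their printed stretches were identical at 68 of 70 bases. The core began 34 bases before the start in Igtp and 64 bases before it in Irgm2. The level of Igtp in FPKM was 11.1 times that of Irgm2 in Ctrl 1 and 46.9 to 73.7 times in the other libraries. In their transcripts, 11.8% of the stretches of 50 bases of Igtp also occurred in Irgm2. Among the 6 genes with a promoter, log2 fold changes ran from -1.34 (Igtp) to -3.59 (Gbp2).

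Of the blood cell marker lists, that of neutrophils had the lowest median log2 fold change (-3.67 on the deposited scale). The sums of the monocyte, natural killer cell, T cell and platelet lists also had both Nar libraries below both Ctrl libraries. All 12 neutrophil marker genes fell on the deposited scale, with a summed FPKM of 1746 and 1442 in the Ctrl libraries and 106 and 165 in the Nar libraries, and no marker of the list was at 0. After median-of-ratios scaling 3 of the 12, Camp, Ltf and Ngp, were called by limma, where 0.356% of all tested genes were called lower, and all 12 kept both Nar libraries below both Ctrl libraries, where 25.0% did. This ordering was also kept by 6 of the 7 tested GTPase genes, all but Igtp. The part of neutrophil RNA, or of RNA of other cell types, in their fall was not tested. Of the monocyte markers, 3 of 8 tested genes fell, a share near the 39.6% of all tested genes. Their list summed to 73.1 and 86.2 FPKM against 28.5 and 10.0. The log2 fold changes of the tested monocyte markers ran from -4.17 (Ly6c2, limma adjusted p = 0.00439) to -0.47 (Cx3cr1, limma adjusted p = 0.612). After median-of-ratios scaling Ly6c2 differed by -3.10 (limma adjusted p = 0.0779). Of the natural killer cell markers, 1 of 5 fell, a smaller share, with 16.1 and 15.9 FPKM against 7.22 and 3.21. With the replicate number as a block limma called 5 of the monocyte markers and 3 of the natural killer cell markers (Ncr1, Klrb1c and Klrd1, and no longer Gzma). In that fit it called 1802 of all 5339 tested genes lower. After median-of-ratios scaling it called 0 of either list, with 1 and 0 at an unadjusted p-value under 0.05. Limma called 0 of the 7 T cell and 0 of the 7 B cell markers on either scale, with 2 and 0 at an unadjusted p-value under 0.05 on the deposited scale and 1 and 3 after scaling. T cell markers summed to 9.19 and 7.08 FPKM against 5.94 and 4.03, and B cell markers to 39.1 and 30.1 against 30.4 and 31.4. After median-of-ratios scaling all 7 B cell markers had both Nar libraries above both Ctrl libraries, as had 18.6% of all tested genes.

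Platelet markers had a pattern close to that of Igtp. Their sum stood at 681 (Ctrl 1) and 2152 FPKM (Ctrl 3) in control blood, against 574 (Nar 1) and 442 FPKM (Nar 3) after treatment, and as for Igtp, Ctrl 3 was the high library and Ctrl 1 lay near Nar 1. Limma called 0 of the 7 platelet markers on either scale, with 1 at an unadjusted p-value under 0.05 on the deposited scale and 0 after median-of-ratios scaling. The part of platelet RNA in the level of Igtp was not tested. Erythroid markers other than haemoglobin summed to 9532 and 11623 FPKM in the Ctrl libraries and 11699 and 10653 in the Nar libraries, and limma called 0 of 14 tested genes, with 0 at an unadjusted p-value under 0.05. On the median-of-ratios scale all 14 had both Nar libraries above both Ctrl libraries (18.6% of all tested genes) and limma called 0, with 13 at an unadjusted p-value under 0.05, as were 745 of the 5339 tested genes.

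**Figure D3:**
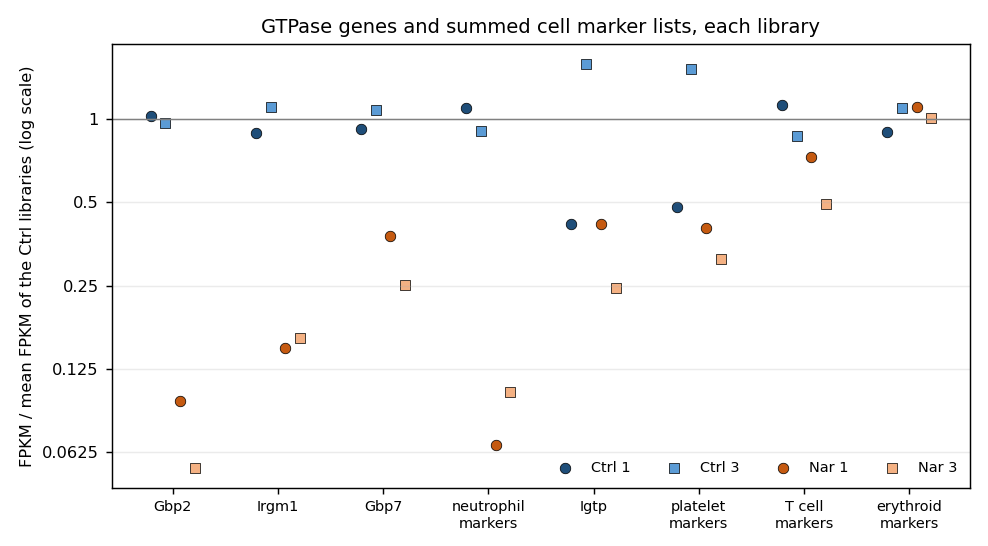
Levels of Gbp2, Irgm1, Gbp7 and Igtp and the summed FPKM of 4 marker lists in each library, divided by the mean of the Ctrl libraries, on a log axis with 1 point per library. Gbp2, Irgm1 and the neutrophil markers have both Nar points far below the Ctrl points, whereas Igtp and the platelet markers have Ctrl 3 alone at the top.

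Other interferon-inducible GTPases outside the group were set beside it. Of 11 with values, 6 were tested and 3 fell, Gbp5, Gbp9 and Ifi47, where 39.6% of all tested genes did. Limma called 0 on the median-of-ratios scale, where 1 had an unadjusted p-value under 0.05. It also called 0 without any 1 of the libraries (2 to 4 at an unadjusted p-value under 0.05) and with no filter (6). Gbp5, which promotes assembly of the Nlrp3 inflammasome, was listed at 0.89 and 0.86 FPKM in the Ctrl libraries and 0.19 and 0.11 in the Nar libraries (log2 fold change -1.98, limma adjusted p = 0.0185). Gbp9 had a log2 fold change of -1.60 (limma adjusted p = 0.0201). Ifi47 (Irgd), another immunity-related GTPase, had one of -1.42 (limma adjusted p = 0.032, and 0.0535 with the replicate number as a block). Tgtp1 and Tgtp2, which encode near-identical effectors and share most of their sequence, had log2 fold changes of -0.95 and -0.84 (limma adjusted p = 0.139 and 0.18). Gvin1, a very large inducible GTPase, was listed at 19.9, 27.2, 32.4 and 13.2 FPKM, with overlapping groups (limma adjusted p = 0.804), and 99.2% of its stretches of 50 bases also occurred in another gene, mainly Gm4070. The median log2 fold change of the 6 was -1.18 against -1.07 for all tested genes, and -0.17 against -0.061 after scaling. The signs of Tgtp1, Tgtp2 and Gvin1 turned to positive after scaling.

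Along the interferon-gamma pathway, 16 of 24 tested genes fell and 0 rose, beside the 39.6% of all tested genes that fell, with a median log2 fold change of -1.45 (-0.45 after median-of-ratios scaling). Limma called 0 of them without Ctrl 1, without Ctrl 3 or with no filter (13, 18 and 21 at an unadjusted p-value under 0.05), 7 without Nar 1 and 2 without Nar 3. The number called over all tested genes dropped in each of these fits as well. The ligand, Ifng, was low, at 0.25 and 0.62 FPKM in the Ctrl libraries and 0.04 and 0.07 in the Nar libraries, and was not tested. Both receptor chains fell, Ifngr1 with a log2 fold change of -1.74 (limma adjusted p = 0.023) and Ifngr2 with -1.63 (limma adjusted p = 0.0235). The kinases had log2 fold changes of -1.01 (Jak1) and -1.40 (Jak2), and neither passed (limma adjusted p = 0.133 and 0.0508).

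Of the transcription factors, Irf1 fell most. It stood at 6.5 (Ctrl 1) and 8.85 FPKM (Ctrl 3) in control blood, against 0.96 (Nar 1) and 0.6 FPKM (Nar 3) after treatment, a log2 difference of -3.16 (standard error 0.42, limma adjusted p = 0.00427), and was thus close to Gbp2 in size. Stat2 (-2.21), Irf8 (-1.44) and Irf9 (-1.11) also fell, with limma adjusted p-values of 0.00774, 0.0308 and 0.0348 (0.0525 for Irf9 with the replicate number as a block), while Irf2 (-0.84) did not pass (limma adjusted p = 0.133). Nlrc5, which drives genes of MHC class I, had a log2 fold change of -2.17 (limma adjusted p = 0.0104), and Ciita, which drives class II, one of -0.68 (limma adjusted p = 0.187). Of the inhibitors, Socs3 fell by 3.18 on the log2 scale (limma adjusted p = 0.00385) and Pias1 by 2.21 (limma adjusted p = 0.00878), whereas the phosphatase genes Ptpn2 (-1.14), Ptpn6 (-1.38) and Ptpn11 (-1.01) did not pass, although Ptpn2 did with the replicate number as a block (limma adjusted p = 0.0461). Among target genes, Cd274, Tap1, Psmb10, Psmb9 and B2m fell, with log2 fold changes of -2.22, -1.79, -1.62, -1.11 and -1.80, and limma adjusted p-values from 0.0104 to 0.0496 (0.0757 for Psmb9 with the block). After median-of-ratios scaling the groups overlapped for B2m, Psmb9 and Psmb10, as they did for Ifngr2, Irf8 and Irf9. B2m, which is used by most cell types, had 1013 and 4728 FPKM in the Ctrl libraries. Il18r1 fell by 1.39 on the log2 scale, and Stat4 (-0.82) did not pass. Ido1 and Psmb8 were listed at 0 in all 4 libraries. After median-of-ratios scaling 0 of the 24 genes were called by limma, with 6 at an unadjusted p-value under 0.05.

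**Figure D4:**
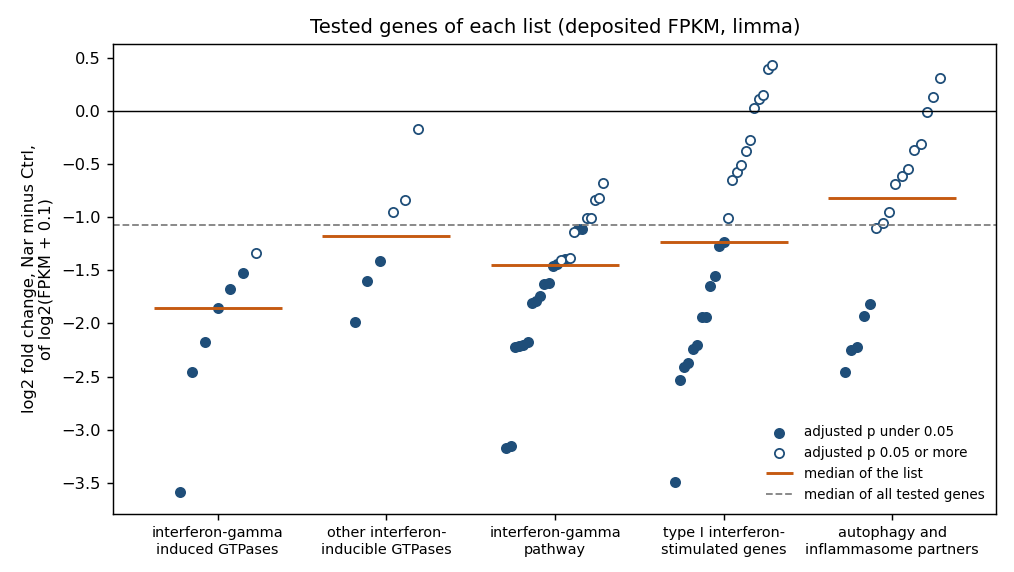
Log2 fold change (Nar minus Ctrl, deposited scale) of the tested genes of each gene list, 1 point per gene, with filled points for a limma adjusted p-value under 0.05. Orange lines are the median of each list and the dashed line the median of all tested genes (-1.07). The median of the GTPase genes is -1.85, and the type I interferon-stimulated genes reach from -3.49 to 0.43.

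Genes stimulated by type I interferon, which overlap in regulation with the GTPase genes, were set beside them. Of 23 tested, 12 fell and 0 rose, where 39.6% of all tested genes fell, and their median log2 fold change was -1.23 against -1.07 for all tested genes. On the median-of-ratios scale limma called 1, Oas2, where 0.356% of all tested genes were called lower, and the median was -0.16. On the deposited scale it called 0 without Ctrl 1, without Ctrl 3 or with no filter (12, 11 and 15 at an unadjusted p-value under 0.05), 5 without Nar 1 and 2 without Nar 3. Over all tested genes the number called dropped in each of these fits too. The 4 type I genes with the highest mean did not pass the test and had log2 fold changes above 0 on the deposited and the median-of-ratios scale. Isg20, an exonuclease gene, was listed at 363, 538, 587 and 603 FPKM in Ctrl 1, Ctrl 3, Nar 1 and Nar 3, and Rsad2 (viperin) at 93.0, 158, 169 and 150. In the same order, Isg15 was listed at 51.7, 114.53, 90.85 and 76.03 FPKM and Irf7 at 18.38, 78.49, 37.79 and 39.74. For both, Ctrl 3 was the highest and Ctrl 1 the lowest library. Their log2 fold changes were 0.11 and 0.03 (limma adjusted p = 0.865 and 0.973). In each library all 4 had a higher FPKM than Igtp, the highest of the 10 GTPase genes.

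Partners of the GTPases in autophagy and in the non-canonical inflammasome were described in the same way. Of 16 tested genes 5 fell and 0 rose, a smaller share than the 39.6% of all tested genes, and their median log2 fold change was -0.82 against -1.07. On the median-of-ratios scale limma called 0, and 6 had an unadjusted p-value under 0.05, beside 745 of all 5339 tested genes. The 5 were Casp4 (caspase-11, -2.46), Casp1 (-2.25), Gsdmd (-1.93), Aim2 (-1.82) and the autophagy gene Atg3 (-2.23). The 4 with the highest mean, Gabarapl2 (-0.01), Becn1 (-0.31), Gabarap (-0.54) and Map1lc3b (-0.36), had limma adjusted p-values from 0.393 to 0.99, and the sign of their log2 fold changes turned to positive after median-of-ratios scaling, as did that of the list's median (0.19).

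The tested genes outside the group whose 4 values were most like the mean pattern of the 7 tested GTPase genes were Hist3h2ba, Pias1, Ugt1a6a, Stat2 and Zdhhc3. Likeness was measured over 4 libraries as the Euclidean distance between mean-centred log2(FPKM + 0.1) values, which ran from 0.102 to 0.199 for these 5. Among the GTPase genes themselves the distance to that mean was 0.522 for Gbp4 and 1.52 for Gbp2, with Igtp at 1.44, so the mean pattern described Gbp4, Gbp7, Irgm1 and Irgm2 better than Gbp2 and Igtp.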

How the data were processed

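Blood messenger RNA, purified with oligo(dT) beads, was sequenced in 4 libraries, 2 Nar and 2 Ctrl. Per the paper's methods, bowtie-2 was the aligner, run by the authors against gene sequences; the submitters' processing notes name TopHat2, Cufflinks and GRCm38. The authors deposited FPKM values rounded to 2 decimals. These sources name different tools and do not say which gave the FPKM values; the annotation is not given in the sources used here. All 4 columns were matched to libraries by their labels. Of 23136 genes listed, 5313 were blank. Low values showed no steps of whole reads, so the depth is unknown and no counting error is given.

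Differences of log2(FPKM + 0.1) were tested with limma 3.58.1 (R 4.3.3, eBayes with trend) on genes whose mean FPKM reached 0.5, with Benjamini-Hochberg adjustment over all 5339, and a call is an adjusted p-value under 0.05. DEGseq, which the study used, needs read numbers. Steps were tested on simulated data. The GTPase genes, lists and rule for named genes (all GTPase genes; listed pathway and GTPase genes with a mean of at least 0.5 FPKM; the 4 highest of other lists; the 5 nearest in pattern) were chosen with earlier results of these data known. The values of 1 gene of the pathway list are not reported here. Haemoglobin genes served as a list for rescaling. The alternatives comprised pseudocounts of 1 and 0.01, no filter, 2 other scalings, the replicate number as a block, and each library left out. Crossed replicate numbers were added after seeing the data. Promoters came from RefSeq (GRCm38.p6), and transcripts for shared sequence from GENCODE vM21. Python 3.11.15 and matplotlib 3.10.9 made the plots.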

Additional observations from a re-analysis of the deposited data

How the results depend on the processing

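All 7 tested GTPase genes kept a negative log2 fold change under every alternative run. Gbp2 was called in 8 of 11 alternatives, Irgm1 in 7, Gbp4 in 5, Gbp3, Gbp7 and Irgm2 in 4 each and Igtp in 1. The crossed replicate numbers, tried after seeing the data, were among the 11. They gave the 1 call of Igtp, and called 3233 of all 5339 tested genes. Gbp3, Gbp7 and Irgm2 were called with either pseudocount, the block and the crossed numbers, but not after either rescaling. Causes of changes were not tested. Of the 7 tested GTPase genes, 6 were called on the deposited scale.

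After median-of-ratios scaling limma called 1 GTPase gene, 0 other interferon-inducible GTPases (1 at an unadjusted p-value under 0.05), 0 pathway genes (6 at an unadjusted p-value under 0.05), 1 type I interferon-stimulated gene and 25 of all tested genes, 19 lower and 6 higher in place of 2113 and 10. The median log2 fold changes were -0.76 for the 10 GTPase genes, in place of -1.60, and -0.061 for all tested genes. With haemoglobin genes removed the counts were 2, 0 (3 unadjusted), 3, 5 and 281 (267 lower, 14 higher), and the medians -1.13 and -0.56. A pseudocount of 1 moved the medians to -0.77 and -0.62, and 0.01 moved that of the GTPase genes to -2.18.

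Without the filter limma called 0 genes in each of these lists and 0 of 16382 genes, while 4978 genes, 8 of the 10 GTPase genes among them, had an unadjusted p-value under 0.05; the adjusted p-values of the 10 ran from 0.113 to 0.32, and the median of all genes was -0.57.

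Leaving out 1 library gives an arm with a lone library, assumed to vary like the others. GTPase genes called then ran from 0 to 3, other interferon-inducible GTPases from 0 to 0, pathway genes from 0 to 7, type I interferon-stimulated genes from 0 to 5 and all tested genes from 0 to 259. Without Ctrl 1 or without Ctrl 3, limma called 0 genes, with 2682 and 2133 at an unadjusted p-value under 0.05, of which 7 and 5 were GTPase genes. Gbp2 and Irgm1 were called without either Nar library, and Gbp4 without Nar 1. The medians ran from -1.76 to -1.44 for GTPase genes and from -1.22 to -0.93 for all tested genes.

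The replicate numbers come only from the labels, and the deviations of same-numbered libraries from their group means had a weak negative correlation (-0.153 across tested genes). When a block for replicate number was added, the counts were 6 GTPase genes, 2 other interferon-inducible GTPases, 14 pathway genes, 11 type I genes and 1815 of all tested genes. With crossed numbers, which were tried after seeing the data, they were 7, 4, 20, 12 and 3233.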

Other observations

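The nearest genes in pattern to Igtp alone, a comparison chosen after its values were seen, were Camk1, Ppfibp1, Slamf1, Gucy1b1 and Zranb3, at distances from 0.116 to 0.183 over 4 libraries. Slamf1, a receptor of the SLAM family, stood at 8.63 (Ctrl 1) and 30.9 FPKM (Ctrl 3) in control blood, against 8.21 (Nar 1) and 5.36 FPKM (Nar 3) after treatment. Gucy1b1, a subunit of soluble guanylate cyclase, was listed at 5.22, 18.6, 5.52 and 3.11 FPKM. As for Igtp, Ctrl 3 was the high library and Ctrl 1 lay beside Nar 1, and none of the 5 passed limma (adjusted p from 0.068 to 0.131).

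Outside the group, Gbp8 was listed at 0.54 and 0.86 FPKM in the Ctrl libraries and at 0.07 and 0.03 in the Nar libraries, with a mean under the filter. Gbp10 and Gbp2b were listed at 0 in both Nar libraries and at 0.14 FPKM or less in the Ctrl libraries. Of the stretches of 50 bases of Gbp10, 84.1% also occurred in another gene, mainly Gbp6 and Gm43302. F830016B08Rik was listed at 0.04 (Ctrl 1), 0.1 (Ctrl 3), 0.04 (Nar 1) and 0.01 FPKM (Nar 3), with overlapping groups.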
